A study of Mus musculus with 8 samples.

Results

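The 10 genes described here encode smooth-muscle and myoepithelial cytoskeletal proteins and 2 lineage markers that are commonly read with them. They are Acta2, Actg2, Tagln, Cnn1, Tpm1, Tpm2, Myl9, Mylk, Trp63 and Vim. They were taken by gene symbol from the deposited count table, in which each of the 10 matched 1 of the 31894 entries with a gene identifier. The libraries were made from breast cancer brain metastases (BCBM) that grew after intracranial injection into mice of the FVB strain, whose genotype the sample labels give as wild type and whose age they do not give. The tumor cells came from the PyMT model, in which the polyoma middle T antigen drives mammary carcinoma, and carried a fusion of E-cadherin with mCFP, a cyan fluorescent protein. They had been passed serially through the brain and kept as organoids, and this brain-enriched stock was the source of the tumors. From the tumor of each of mice 57, 58, 67 and 70, live cells were sorted by mCFP into an E-cadHI and an E-cadLO population, and each population gave 1 bulk library of mRNA, 8 in all. Both groups shared strain, tumor stock and dissociation, and the labels name no treatment. The gate that the study shows for these tumors kept single live cells positive for H2B-Dendra2, a green nuclear label of the tumor cells, and low in tdTomato, before it split them by mCFP. Sort purity was examined for the mCFP-positive population alone.

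Smooth muscle cells and the myoepithelial cells that wrap the ducts of the mammary gland contract through the same apparatus. Smooth muscle actins form thin filaments, tropomyosins, calponin and transgelin bind along them, and myosin pulls on them once myosin light chain kinase has phosphorylated its regulatory light chain. The genes of this apparatus are switched on together by serum response factor, which binds a short AT-rich element called the CArG box. p63, the product of Trp63, holds basal and myoepithelial cells in their state, and vimentin is the intermediate filament of mesenchymal cells. The same genes mark myofibroblasts, pericytes and vascular smooth muscle, and several are used as markers of epithelial-to-mesenchymal transition.

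Total counts ranged from 9102781 to 15769200 per library, and levels are counts per 1000000 counted reads (CPM) after TMM scaling, a method that aligns libraries on their common genes. A floor of 3 counts corresponded to between 0.202 and 0.349 CPM, which covers counting error only. Cdh1, the gene of E-cadherin itself, was between 93.5 and 132 CPM in E-cadHI libraries and between 59.2 and 181 CPM in E-cadLO libraries, and it was higher in the E-cadLO library of 1 of 4 mice, mouse 58. Luminal markers of the tumor were present throughout, with Krt8 and Krt18 detected in every library. Some E-cadLO libraries stood apart. The summed level of 12 fibroblast markers was 1594 CPM in the E-cadLO library of mouse 57 against 26.2 to 52.1 CPM in the other E-cadLO libraries, the sum of 10 astrocyte markers was 10426 CPM in that of mouse 70 against 741 to 2030 CPM in the others, and Gm42418 took 14.4% of the counts in that of mouse 58 against 2.23% to 7.67% in the other 7 libraries.

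Between the genes, sequence decides how far reads of 65 bases can be told apart. The smooth muscle actin Acta2 (chromosome 19, 34241090 to 34255336 of GRCm38, reverse strand) encodes a protein nearly identical to the far more abundant cytoplasmic actins. Its longest exact run in common with an annotated transcript of Actg1 lies in exon 8 at chr19:34243342-34243397 and is shown because it sets the limit on confusing these genes, with the 47 bases that Actb also holds in capitals:

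Acta2 and Actg1: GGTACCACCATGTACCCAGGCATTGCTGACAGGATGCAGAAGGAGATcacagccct

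This run has 56 bases, fewer than the 65 of a read. Over 12 pairs of a member with a relative (Acta2 with 5 actins, Tpm1 with 3 tropomyosins, Myl9 with 2 light chains and Cnn1 with 2 calponins) the longest exact run was between 22 and 56 bases, so no error-free read of full length fits both genes of a pair. How reads with mismatches were assigned is not given in the sources used here.

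Tagln (chromosome 9, 45929619 to 45936058, reverse strand) is the member that shares the most sequence with genes it overlaps on the opposite strand. Of the 1983 stretches of 65 bases in its annotated transcripts, 1053 (53.1%) also lie, reversed, in transcripts of the antisense gene Gm48529 and 44 (2.22%) in those of Pcsk7. An example from coding exon 5 is shown because a read of this sequence belongs to Tagln or to Gm48529 depending on its strand, which the counting is not stated to have used. It is printed on the strand of Tagln, at chr9:45930447-45930511, and all 65 bases are shared:

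Tagln and Gm48529: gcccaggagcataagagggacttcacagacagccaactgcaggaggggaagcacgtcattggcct

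Mylk (chromosome 16, 34745210 to 35002420, forward strand) shares 3.91% of its stretches with antisense genes, and the other 8 members share none with any other annotated gene.

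The RefSeq promoter table (GRCm38.p6) held 7 of the 10 members, all except Tagln, Actg2 and Trp63. In the 250 bases upstream of the start, a perfect CArG box was present in 1 of the 7, Myl9, against 1.47% of all 32851 promoters in the table. A box with 1 of its 10 letters changed was present in Myl9, Acta2 and Tpm1, against 17.5% of all promoters. The Myl9 stretch at chr2:156775283-156775394 (forward strand) is shown with its boxes in capitals. The perfect box starts 161 bases upstream of the start, and the box that starts 99 bases upstream has 1 changed letter:

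Myl9: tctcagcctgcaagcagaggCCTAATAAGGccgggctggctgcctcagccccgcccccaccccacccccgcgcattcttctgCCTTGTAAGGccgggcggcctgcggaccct

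The boxes with 1 change in Acta2 read CCCTATATGG, 84 bases upstream, and CCTTGTTTGG, 34 bases upstream. The stretches around these boxes and around those of Tpm1 overlap exons of the same gene in GENCODE M21, whereas those of Myl9 do not. The search covered both strands, since the pattern of the box is its own reverse complement. Cnn1, Tpm2, Mylk and Vim held no box of either kind in this window, and boxes farther away or inside the genes were not searched.

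Most of the 10 genes were scarce in both populations, and several were close to the limit of detection. Among the 10, only Tpm1 and Vim were plainly abundant. Tpm1 ranked between the 95.7th and the 99.3rd percentile of the 13598 genes tested in every library and Vim between the 64.2nd and the 96.4th, where the median gene stood at 20.8 to 24.0 CPM. The other 8 genes reached at most 9.16 CPM in any library. The summed level of these 8 scarce genes was 2.93, 7.53, 3.57 and 12.9 CPM in the E-cadHI libraries of mice 57, 58, 67 and 70, and 18.5, 10.8, 10.2 and 34.0 CPM in their E-cadLO libraries. It was higher in the E-cadLO library of each mouse, although the highest E-cadHI library, that of mouse 70, lay above the E-cadLO libraries of mice 58 and 67. In raw counts the 8 genes together gave 42, 98, 48 and 147 in the E-cadHI libraries of these mice, 335 in all. The E-cadLO libraries gave 249, 93, 151 and 487, or 980 in all, most of them from mice 57 and 70. In mouse 58 the raw sum was lower in the E-cadLO library, which had 9102781 total counts against 13006189 in its E-cadHI library.

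Per kilobase of exon, the scale on which genes can be compared, Tpm1 was highest with a mean of 56.1 CPM per kb over the 8 libraries, followed by Vim (17.6), Myl9 (3.01), Tagln (1.26), Acta2 (0.762), Tpm2 (0.511), Trp63 (0.231), Actg2 (0.207), Cnn1 (0.187) and Mylk (0.0556). Tpm1 was above Vim in all 8 libraries and Vim above Myl9 in all 8. Below Vim, the ranges over libraries of each gene and the next in this order overlapped, and their order is not settled by these data. The lengths are those of all annotated exons together, so a gene with long alternative exons such as Tpm1 has its level understated.

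**Figure D1:**
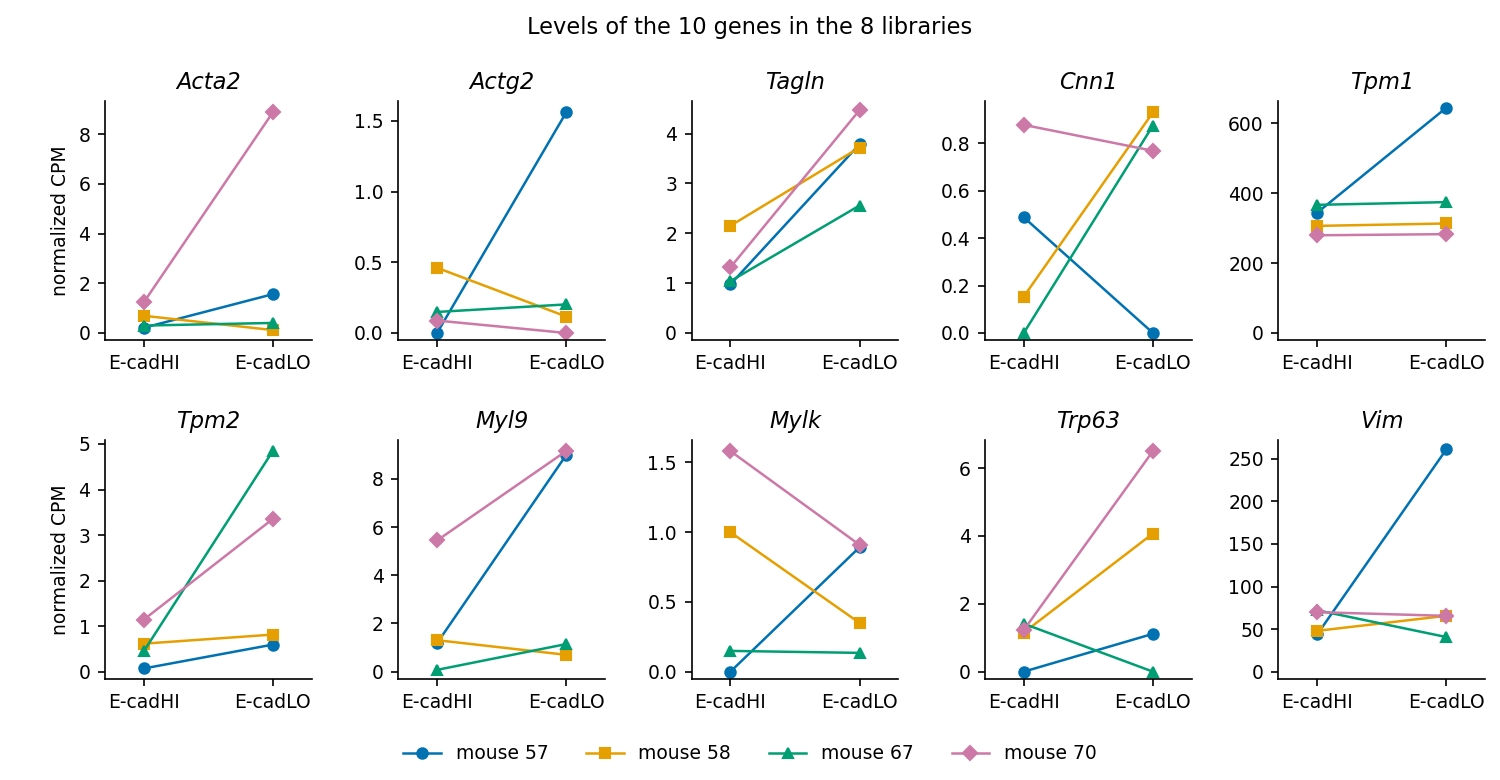
Normalized CPM (vertical axes, each starting at 0 and with its own scale) of the 10 genes in the E-cadHI and E-cadLO libraries, with a line joining the 2 libraries of a mouse. Tagln is higher in all 4 E-cadLO libraries than in any E-cadHI library, whereas Vim reaches 261 CPM in the E-cadLO library of mouse 57 alone.

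No gene passed an adjusted p under 0.05 between E-cadLO and E-cadHI cells in the fit over all libraries (0% of the 13598 genes tested; quasi-likelihood test of edgeR, p adjusted after Benjamini and Hochberg), and accordingly none of the 10 genes did. Before adjustment, 1109 genes (8.16%) had a p under 0.05 and a higher level in E-cadLO cells, and 790 a lower level. With the mouse as a replicate block, which compares the populations within each mouse, edgeR called 99 genes (0.728%), all higher in E-cadLO cells. DESeq2 called 359 genes (2.78%) and, with the block, 1255 (9.41%). The 10 genes were among the calls of none of these fits. Of the 10, 7 had enough counts to be tested; Acta2, Actg2 and Cnn1 did not pass the filter on low counts. Since the libraries are bulk samples, fewer cells that express a gene and less RNA of it per cell cannot be told apart in any of these values.

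The 2 smooth muscle actins were rare in both populations. Acta2, the α-smooth muscle actin that defines myofibroblasts and myoepithelial cells, was at 0.209, 0.692, 0.297 and 1.23 CPM in the E-cadHI libraries of mice 57, 58, 67 and 70 (3, 9, 4 and 14 counts). In the E-cadLO libraries of these mice it was at 1.56, 0.116, 0.404 and 8.88 CPM (21, 1, 6 and 127 counts). The groups overlapped, and the E-cadLO mean rested on mouse 70, which held 127 of the 155 counts of the group. The difference in mean log2(CPM + 0.5) was 0.80 (exact two-sided permutation test, p = 0.514, 4 against 4 libraries, smallest possible p 0.0286). That test regroups the 8 libraries freely and does not use the pairing by mouse. Actg2, the γ-smooth muscle actin of gut and other visceral muscle, had 0, 6, 2 and 1 counts in the E-cadHI and 21, 1, 3 and 0 counts in the E-cadLO libraries of the mice in the same order. Only the E-cadLO library of mouse 57, at 1.56 CPM, was above 1 CPM, and the difference in mean log2(CPM + 0.5) was 0.32 (p = 0.657, same exact permutation test). By contrast, Actb, the cytoplasmic β-actin, made up between 94.9% and 97.5% of the actin signal per kilobase in each library, and Acta2 between 0.0016% and 0.128%.

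Of the proteins that bind the thin filament, Tagln gave the clearest difference. Tagln encodes transgelin (SM22α), an actin cross-linking protein of smooth muscle that appears early in its differentiation. It was at 0.976, 2.15, 1.04 and 1.32 CPM in the E-cadHI libraries (14, 28, 14 and 15 counts) and at 3.79, 3.72, 2.56 and 4.47 CPM in the E-cadLO libraries of the same mice (51, 32, 38 and 64 counts). The groups did not overlap, a separation in this direction that 3.9% of all genes tested also showed, and E-cadLO cells were higher in 4 of 4 mice, as for 16.8% of all genes. The log2 ratios within mice 57, 58, 67 and 70, on CPM plus 0.5, were 1.54, 0.67, 0.99 and 1.45. The fitted log2 fold change was 1.40 (standard error 0.47, 95% interval 0.35 to 2.45), with an unadjusted p of 0.0145 and an adjusted p of 0.298 (edgeR's quasi-likelihood test). With the replicate block it was 1.44 (standard error 0.50, adjusted p = 0.195), and DESeq2 gave an adjusted p of 0.134 without and 0.0765 with the block. Tagln thus differed by more than the spread between libraries but did not pass the adjustment over all genes in any fit. Pcsk7, its neighbour on the opposite strand, was at 37.7 to 51.3 CPM in E-cadHI and at 29.8 to 87.7 CPM in E-cadLO libraries, with overlapping groups; reads of Gm48529 were not analysed here, and the part of either gene in the counts of Tagln was not tested.

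Within its own family Tagln stayed minor. It made up 0.336% to 0.664% of the transgelin signal per kilobase in E-cadHI and 0.833% to 1.18% in E-cadLO libraries, again without overlap. Tagln2, the broadly expressed relative, held between 62.8% and 99.5%.

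Tpm2 encodes β-tropomyosin, a muscle-type tropomyosin that covers the actin filament. It was at 0.0697, 0.615, 0.446 and 1.14 CPM in the E-cadHI libraries and at 0.594, 0.814, 4.85 and 3.35 CPM in the E-cadLO libraries of mice 57, 58, 67 and 70. E-cadLO cells were higher in each mouse, with log2 ratios of 0.94, 0.24, 2.50 and 1.23, yet the groups overlapped, since the E-cadLO levels of mice 57 and 58 lay below the highest E-cadHI level. The fitted log2 fold change was 2.08 (standard error 0.91, 95% interval 0.03 to 4.13), with an unadjusted p of 0.0471 and an adjusted p of 0.354 (edgeR's quasi-likelihood test). With the replicate block it was 2.0 with an adjusted p of 0.205. In all, 2 of the 7 tested members, Tagln and Tpm2, had an unadjusted p under 0.05 in the direction of E-cadLO (edgeR without the block). So had 8.16% of all genes tested.

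Tpm1, which encodes α-tropomyosin and is spliced into muscle and non-muscle forms that the gene counts do not separate, was the most abundant member. It stood at 344, 307, 367 and 280 CPM in the E-cadHI libraries and at 645, 313, 375 and 283 CPM in the E-cadLO libraries. Its E-cadLO level was above the E-cadHI level in 4 of 4 mice, but the log2 ratio was 0.90 in mouse 57 and between 0.017 and 0.032 in the other 3. The fitted log2 fold change was 0.32, with a standard error of 0.26 and an adjusted p of 0.560 (edgeR's quasi-likelihood test), and it was -0.027 without the E-cadLO library of mouse 57. With libraries scaled by their totals only, Tpm1 was higher in 2 of 4 mice, with log2 ratios of -0.053 in mouse 58 and -0.060 in mouse 70. Among the tropomyosins, Tpm4 held 66.4% to 72.7% of the signal per kilobase, Tpm1 14.3% to 20.1% and Tpm2 at most 0.412%.

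Cnn1, the calponin of differentiated smooth muscle, was at or near 0 throughout, with 0.488, 0.154, 0 and 0.878 CPM in the E-cadHI and 0, 0.931, 0.875 and 0.769 CPM in the E-cadLO libraries of mice 57, 58, 67 and 70. Each population held 1 library without a count, and the groups overlapped. The difference in mean log2(CPM + 0.5) was 0.37 (exact two-sided permutation test without pairing, p = 0.486). A count of 0 allows up to 3 counts, which is at most 0.349 CPM at these depths. The non-muscle calponins made up nearly all of the family signal, Cnn3 with 63.5% to 89.1% and Cnn2 with 10.8% to 36.5%.

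**Figure D2:**
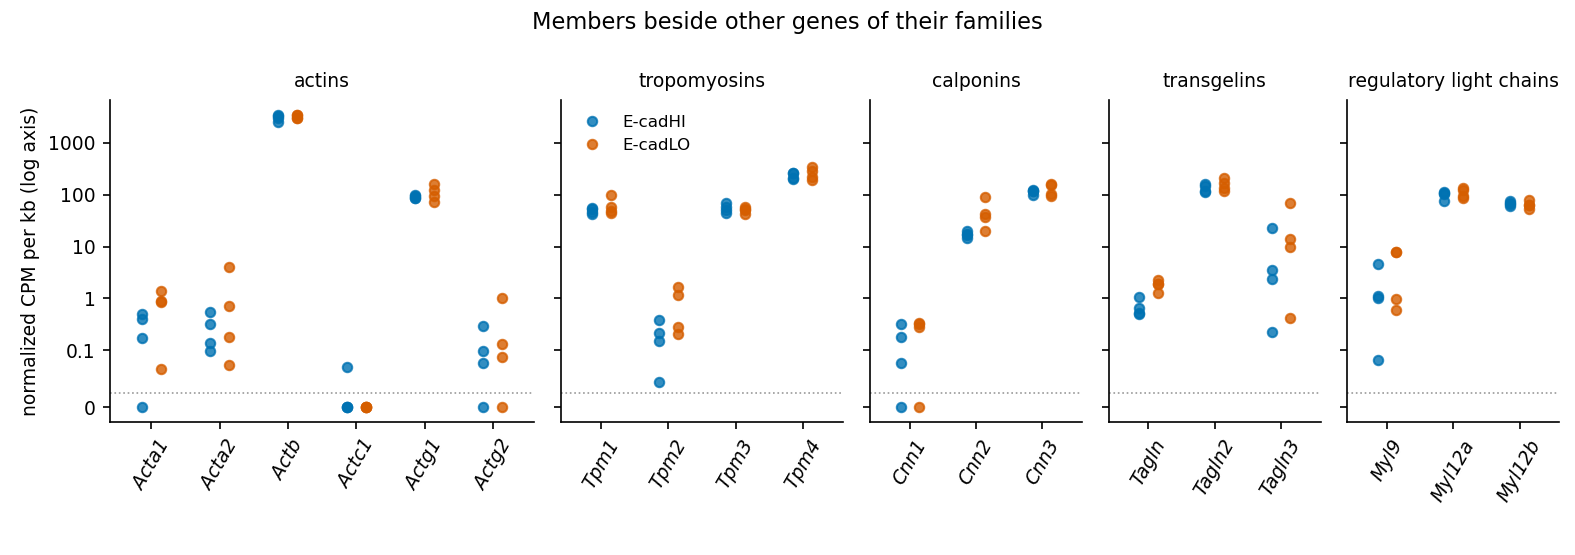
Normalized CPM per kilobase of exon (log axis) in each library for the members and other genes of 5 families, with E-cadHI libraries in blue and E-cadLO libraries in orange; the points below the dotted line are libraries with a count of 0. Actb, Tpm4, Cnn3, Tagln2 and Myl12a lie far above Acta2, Tpm2, Cnn1, Tagln and Myl9 in both groups.

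The motor side of the apparatus was represented by Myl9 and Mylk. Myl9, the regulatory light chain of smooth muscle myosin, was at 1.18, 1.31, 0.0743 and 5.44 CPM in the E-cadHI libraries and at 8.99, 0.698, 1.14 and 9.16 CPM in the E-cadLO libraries of mice 57, 58, 67 and 70. E-cadLO cells were higher in 3 of 4 mice and lower in mouse 58 (log2 ratios 2.49, -0.59, 1.52 and 0.70), and the groups overlapped. The fitted log2 fold change was 1.33 (standard error 1.12, 95% interval -1.20 to 3.85, adjusted p = 0.568, edgeR's quasi-likelihood test), and 1.47 with the replicate block (adjusted p = 0.334). It was 0.67 without mouse 57 and 2.54 without the E-cadHI library of mouse 70, the ends of its range when a mouse or library was left out. Its share of the regulatory light chains per kilobase was 0.035% to 2.61% in E-cadHI and 0.376% to 5.02% in E-cadLO libraries, with Myl12a at 54.4% to 69.6%.

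Mylk, the kinase that switches this light chain on, had 0, 0.999, 0.149 and 1.58 CPM in the E-cadHI and 0.892, 0.349, 0.135 and 0.909 CPM in the E-cadLO libraries. Its E-cadLO level was higher in mouse 57 and lower in mice 58 and 70. In mouse 67 both libraries had 2 counts, and the log2 ratio was -0.03. The fitted log2 fold change was -0.23 (standard error 1.11, 95% interval -2.71 to 2.26, adjusted p = 0.931, edgeR's quasi-likelihood test) and 0.13 with the replicate block, and the interval is too wide to give a direction.

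Trp63, the transcription factor of basal and myoepithelial cells, was at 0, 1.15, 1.41 and 1.23 CPM in the E-cadHI libraries and at 1.11, 4.07, 0 and 6.5 CPM in the E-cadLO libraries of mice 57, 58, 67 and 70. It was higher in the E-cadLO cells of 3 mice and had no count in those of mouse 67 (log2 ratios 1.69, 1.47, -1.94 and 2.02), so the groups overlapped on both sides. For Trp63 the fitted log2 fold change was 1.61 (standard error 1.34, 95% interval -1.39 to 4.62, adjusted p = 0.560, edgeR's quasi-likelihood test). It was 0.85 without the E-cadLO library of mouse 70 and 2.27 without mouse 67, and with the replicate block it went from 0.67 without mouse 57 to 2.69 without mouse 67. Trp53, the relative of Trp63 in the p53 family, made up at least 98.1% of the family signal per kilobase in every library.

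Vim was at 43.7, 47.9, 72.2 and 69.9 CPM in the E-cadHI libraries and at 261, 65.6, 40.7 and 65.6 CPM in the E-cadLO libraries. The E-cadLO library of mouse 57 was more than 3 times any other, while mice 58, 67 and 70 fell within or just outside the E-cadHI range (log2 ratios 2.56, 0.45, -0.82 and -0.09). For Vim the fitted log2 fold change was 0.89 (standard error 0.53, 95% interval -0.31 to 2.09, adjusted p = 0.453, edgeR's quasi-likelihood test), -0.056 without the E-cadLO library of mouse 57 and -0.17 without both libraries of mouse 57. The library of mouse 57 that carried the Vim value was also the library with 1594 CPM of fibroblast markers, led by Col1a1, a collagen chain, at 497 CPM; the part of fibroblast RNA in the Vim value was not tested.

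**Figure D3:**
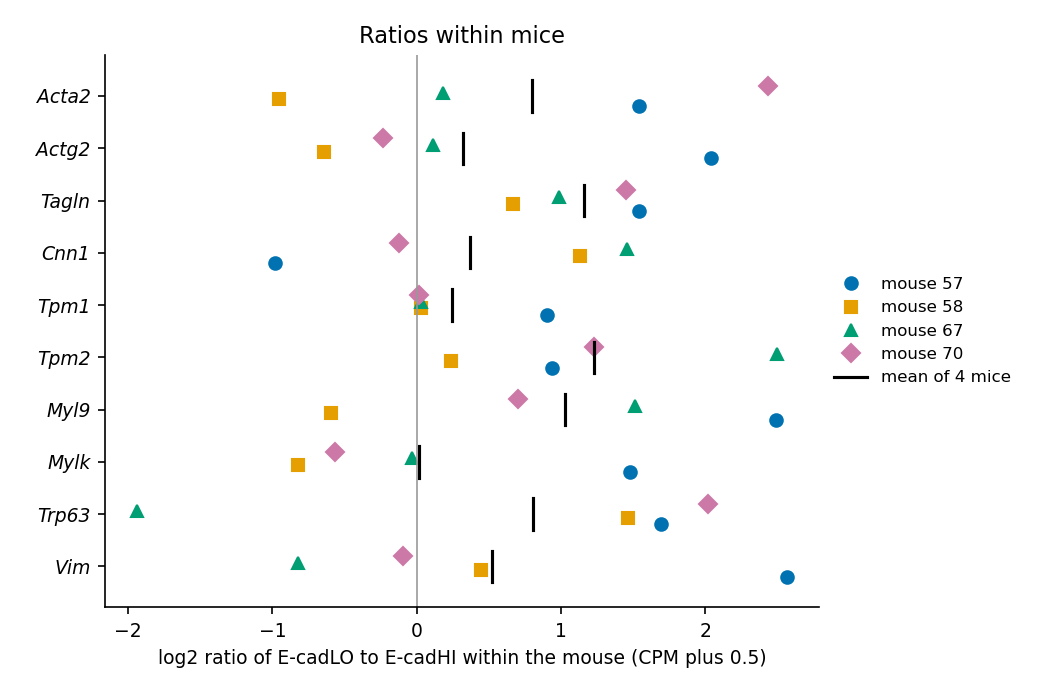
Log2 ratio of E-cadLO to E-cadHI within each of the 4 mice (horizontal axis, on CPM plus 0.5) for the 10 genes, with the mean of the 4 mice as a bar. Tagln and Tpm2 lie to the right of 0 in every mouse, and Tpm1 does so by at least 0.017 under TMM scaling but not when libraries are scaled by their totals only; the other 7 genes fall on both sides.

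Across the mice, 3 of the 10 genes, Tagln, Tpm1 and Tpm2, were higher in E-cadLO cells in 4 of 4, as were 16.8% of all genes tested, and 1, Tagln, had groups that did not overlap with E-cadLO above, as had 3.9% of all genes. Scaled by library totals only, Tagln and Tpm2 were higher in 4 of 4 mice and Tpm1 in 2. The median log2 fold change of the 7 tested members was 1.33, and 6 of them were positive. All 13598 genes tested had a median of 0.065, and 7489 of them were positive. With the replicate block the median of the members was 1.44 and all 7 were positive, beside 0.029 and 7098 over all genes. Without mouse 57 the median of the members was 0.67, in the fit with the block as in that without it. The member medians describe only the members with enough counts, and most of them rest on genes below 10 CPM. The median log2 ratio of the 7 tested members was 1.54, 0.24, 0.030 and 0.70 within mice 57, 58, 67 and 70. All genes tested had medians of 0.017, 0.00048, 0.016 and 0.066 in the same order. The spread of the ratios over all genes was not measured here. The E-cadLO library of mouse 57 had the highest level of Actg2, Tpm1 and Vim.

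**Figure D4:**
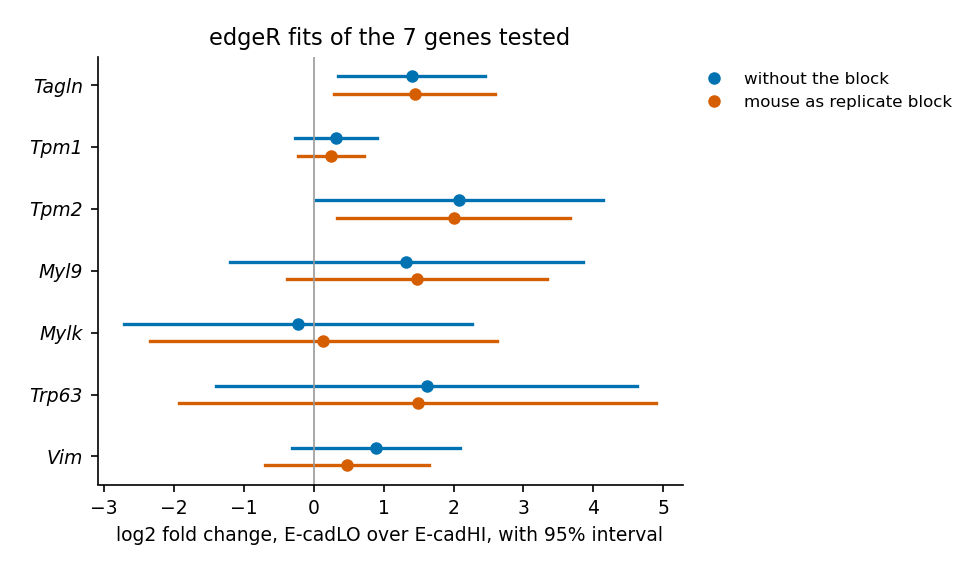
Log2 fold change of E-cadLO over E-cadHI with its 95% interval (horizontal axis) for the 7 members tested, from edgeR without the block (blue) and with the mouse as replicate block (orange). The intervals of Tagln and Tpm2 lie above 0 in both fits before adjustment for multiple tests, and those of Tpm1, Myl9, Mylk, Trp63 and Vim include 0.

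The other contractile genes went both ways. Of 20 other contractile genes, 12 were tested and edgeR called 0 with or without the replicate block. Their median log2 fold change was 0.57. At an unadjusted p under 0.05 (edgeR without the block), 3 were higher and 2 lower in E-cadLO cells. Over all 13598 genes tested, 1109 (8.16%) were higher and 790 lower at that threshold. Lmod1, a leiomodin that seeds actin filaments, and Ldb3, a Z-disc protein, had the smallest values, at -1.15 (adjusted p = 0.312, edgeR) and -0.73 (adjusted p = 0.298), and were lower in E-cadLO cells in 4 of 4 mice without overlap. Over all 13598 genes, 1928 were lower in 4 of 4 mice and 571 did not overlap with E-cadLO below. Tns1, which ties actin to integrins, had the largest at 2.28 (adjusted p = 0.343), followed by Synm (1.51, adjusted p = 0.581) and Ppp1r12b (1.44, adjusted p = 0.311), while Pdlim3 stood at -0.65. DESeq2 called 1 of the 12, and with the block 2. Pdlim7, a LIM-domain protein of actin bundles chosen here after its values were seen, was at 45.3 ± 5.91 CPM in E-cadHI and 94.1 ± 30.2 CPM in E-cadLO libraries (SD, n = 4 each). DESeq2 gave it an adjusted p of 0.0075, and 0.0014 with the block, where it had an adjusted p of 0.251 by edgeR and 0.0879 with its block. Tns1 passed only in DESeq2 with the block (adjusted p = 0.0345). Myh11, the smooth muscle myosin heavy chain, and Des, the muscle intermediate filament, were too scarce to test, with at most 34 and 25 counts in any library.

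The non-muscle actomyosin that every cell uses was measured far better. All 18 genes of that list were tested, none passed in edgeR with or without the block, and the median log2 fold change was 0.22. Cnn2, the calponin of motile non-muscle cells, had the largest value, 1.47 (standard error 0.39, adjusted p = 0.262, edgeR; 0.149 with the block). It was the 1 gene of the 18 that DESeq2 called, with an adjusted p of 0.0106, and 0.0069 with the block, and its E-cadLO libraries, at 49.7 to 222 CPM, all lay above its E-cadHI libraries, at 36.4 to 48.8 CPM. Such a separation was also shown by 530 (3.9%) of all genes tested. Zyx (1.07) and Vcl (0.65), which encode the adhesion proteins zyxin and vinculin, followed, and Actn4 (-0.26), Tpm3 (-0.14) and Myl12b (-0.08) were lowest. Of the 9 regulators of contraction, 8 were tested and none passed, with a median of 0.24. Srf, the serum response factor gene, was at 0.73 (adjusted p = 0.363, edgeR) and Ppp1r12a at 0.48, whereas Mkl2 stood at -0.20 and Ppp1cb at -0.49.

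The myoepithelial program was incomplete in both populations. Of 18 other basal and myoepithelial genes, 12 were tested, edgeR called 0 without and 1 with the replicate block, and the median log2 fold change was 0.41. Krt5, a defining basal keratin, had 1 and 12 counts in the E-cadHI libraries of mice 57 and 58 and 0 in the other 6 libraries, among them all 4 E-cadLO libraries. Krt14, its keratin partner, was present at 87 to 173 CPM and did not differ in the fit (log2 fold change -0.01, adjusted p = 0.99, edgeR). Krt17 was the gene called with the block. It was at 23.2, 13.6, 13.2 and 17.4 CPM in the E-cadHI and at 133, 109, 231 and 42.0 CPM in the E-cadLO libraries, which gave an adjusted p of 0.0427 for a log2 fold change of 2.74 with the block (standard error 0.43, edgeR) and an adjusted p of 0.172 for 2.94 without it. DESeq2 called it in both fits, with an adjusted p of 1.1e-08 without and 5.1e-10 with the block. It was higher in 4 of 4 mice, as were 2286 (16.8%) of all genes tested, and without overlap, as were 530 (3.9%). Itga6, the laminin-binding integrin chain of basal cells, ran the other way, at -0.95 (adjusted p = 0.337, edgeR). It was lower in E-cadLO cells in 4 of 4 mice, as were 1928 of the 13598 genes tested. Itga6 passed in DESeq2 with the block alone (-1.11, adjusted p = 0.0121). Of the 12 genes DESeq2 called 1, Krt17, without the block and 5 with it, 3 higher (Krt17, Pdpn and Lama3) and 2 lower (Itga6 and Oxtr, the oxytocin receptor, at -2.01 with an adjusted p of 0.0093). Itga6, Oxtr, Pdpn and Lama3 are named here after their values were seen. Among 20 genes that are relatives of the members, 13 were tested and 1, Gfap, the astrocyte filament of the vimentin class, was called with the block (2.0, standard error 0.30, adjusted p = 0.036, edgeR).

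Markers of other cells that express contractile genes were measured beside them. All 8 tested of 12 fibroblast markers had positive log2 fold changes, with a median of 3.89, and 2.48 with the replicate block, and their summed level was 8.36 to 25.3 CPM in E-cadHI and 26.2 to 1594 CPM in E-cadLO libraries. The median log2 ratio of the 8 tested was 6.01 within mouse 57 and 0.47, 1.13 and 0.98 within mice 58, 67 and 70. The sum was higher in the E-cadLO library of every mouse, and Lum, Fap, Loxl1 and Mfap5 did not pass the filter on low counts. The 12 mural markers, which mark pericytes and vascular smooth muscle, summed to 102 to 195 CPM in E-cadHI and 83.7 to 231 CPM in E-cadLO libraries, with a median log2 fold change of 0.086 over the 8 tested and 4 of the 8 positive. Anpep led that sum and was lower in E-cadLO cells in 4 of 4 mice. Pdgfrb, the pericyte receptor, was at 0 to 1.23 CPM in E-cadHI and 2.52 to 147 CPM in E-cadLO libraries, highest in mouse 57, and Rgs5 was highest in the E-cadLO library of mouse 70 at 135 CPM. Pdgfrb and Rgs5 are named here after their values were seen. Of the 8 mural markers tested, 3 were lower and 1 higher in E-cadLO cells in 4 of 4 mice. Over all 13598 genes tested, 1928 were lower and 2286 higher in 4 of 4. The 10 astrocyte markers had a median of 1.57, the 10 markers of microglia and macrophages 2.23, the 7 tested endothelial markers 1.33 and the 10 luminal markers -0.23. None of these lists had a gene called by edgeR without the block, and with it 3 astrocyte and 3 microglia and macrophage markers were called higher in E-cadLO cells. DESeq2 called 1 astrocyte and 5 microglia and macrophage markers, and with the block 7 and 9, all higher in E-cadLO cells, as well as 2 fibroblast markers and 1 endothelial marker that were higher and 1 mural marker, Anpep, that was lower. Host cells do not carry H2B-Dendra2, the label that the gate selects. How completely the gate removed them from these libraries was not tested. The part of RNA from any of these cells in the levels of Acta2, Tagln, Tpm2 and Myl9 was not tested.

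**Figure D5:**
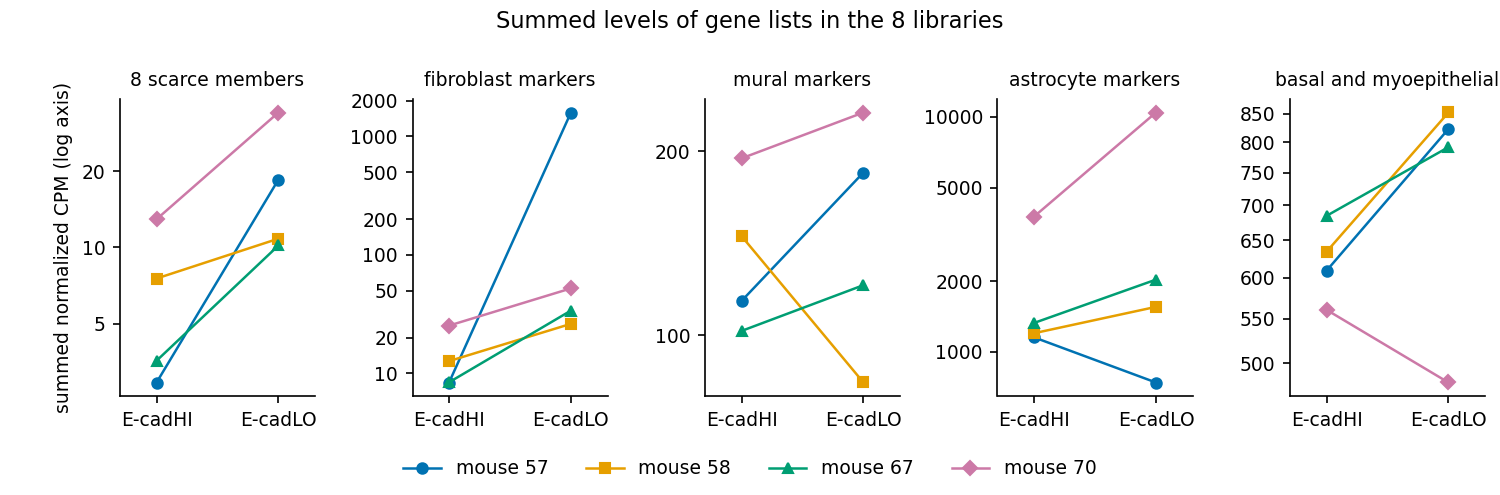
Summed normalized CPM (log axes, each with its own scale) of the 8 scarce members and of the fibroblast, mural, astrocyte, and basal and myoepithelial marker lists, with a line joining the 2 libraries of a mouse. The scarce members and the fibroblast markers are higher in the E-cadLO library of every mouse, and the highest fibroblast sum (mouse 57) and the highest astrocyte sum (mouse 70) fall in the E-cadLO libraries with the highest scarce sums.

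The genes whose levels over the 8 libraries were most like those of 2 members were looked up by the root mean square difference of centred log2(CPM + 0.5) among all genes tested, as a description only. For Acta2 they were Lrp1b (0.27), Trpm3 (0.38), Epdr1 (0.39), Adhfe1 (0.40) and Tnfaip6 (0.44), all of which were highest in the E-cadLO library of mouse 70. For Vim they were Mmp16 (0.16), Dse (0.25), Prss36 (0.25), Exoc3l (0.27) and S100a6 (0.28), all of which were highest in the E-cadLO library of mouse 57. None of these 10 genes passed in the fit (adjusted p between 0.348 and 0.519, edgeR's quasi-likelihood test).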

How the data were processed

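Reads of 8 libraries were mapped by the authors to GRCm38 (HISAT2 2.1.0 in the submitters' processing notes) and deposited as whole-number counts per gene, without normalization. The notes name HTSeq for counting and the study's methods Icount; whether strand was used, and how reads fitting several genes were treated, is not given in the sources used here. The 365 of 32259 entries without an identifier were left out (at most 0.0954% of counts). These were scaled by TMM in edgeR 4.0.16 under R 4.3.3, filtered with filterByExpr by population and compared over 8 libraries with the quasi-likelihood test, with p adjusted after Benjamini and Hochberg over 13598 genes and a threshold of 0.05. CPM are per 1000000 counts of the genes tested. DESeq2 1.42.0, which the study used without naming a block, was an alternative.

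Both libraries of a mouse carry its number in the labels. Deviations from group means correlated at 0.275 to 0.698 within mice and at most 0.153 between mice, so the mouse was used as a replicate block beside the unblocked fit. Mice are the only source of replication. P-values without the block, and those of the permutation test, treat the 8 libraries as independent, although those of a mouse were correlated. P-values with the block set the difference within mice against its spread over 4 mice.

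The members and the gene lists were chosen with earlier results of these data known. Named genes are the members, list genes with an adjusted p under 0.05 in edgeR with or without the block, and otherwise the 3 largest and the 3 smallest log2 fold changes of a list, except where stated. Some results on regulators of contraction are not reported here. The fits were tested on simulated counts. Alternatives were DESeq2, its size factors, other count filters, a robust fit, the block, other pseudocounts and each library or mouse left out; DESeq2 with the block and the block with a mouse left out were added after the data were seen. Gene positions are those of the count table, and exon lengths and transcripts come from GENCODE M21. Intervals and floors cover counting error only where they rest on counts of a single library. Other steps ran in Python 3.11 (pandas 2.3, scipy 1.17, matplotlib 3.10).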

Additional observations from a re-analysis of the deposited data

Results flagged for a closer look

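In 5 of 30 sets of 4 values (3 per gene: E-cadHI levels, E-cadLO levels and log2 ratios within mice) a single value lay far from the other 3. The nominal rate of the rule is about 1 of 20 sets, or 1.5 of 30. That rate was not checked for genes with few counts. The 30 sets are also not independent, because the ratios are built from the levels. Whether 5 is more than chance gives was therefore not tested. The values were those of Acta2 in the E-cadLO library of mouse 70, at 8.88 CPM, of Actg2 in the E-cadLO library of mouse 57, at 1.56 CPM, and of Vim in the same E-cadLO library of mouse 57, at 261 CPM. Among the ratios within mice, the log2 ratio of Tpm1 in mouse 57 was 0.90 against 0.017 to 0.032 in the other 3, and that of Trp63 in mouse 67 was -1.94 against 1.47 to 2.02. Of the 5 values, 3 belong to mouse 57, whose E-cadLO library also held 1594 CPM of fibroblast markers.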

How the results depend on the processing

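None of the 7 tested members passed an adjusted p under 0.05 in any of 151 alternative values, of which 139 kept their direction and 12 were reversed. Mylk was reversed in 8: with the replicate block (0.13), with DESeq2 and the replicate block (0.21), in leave-outs, which ranged from -0.96 to 0.59 (0.22, 0.048, 0.59 and 0.098 where reversed), and in leave-outs with the block (-0.91 to 0.83; 0.83 and 0.20 where reversed). Vim was reversed in 3: without mouse 57 (-0.17), without its E-cadLO library (-0.056; leave-outs -0.17 to 1.33) and without mouse 57 with the block (-0.18). Tpm1 was reversed without the E-cadLO library of mouse 57 (-0.027; leave-outs -0.027 to 0.48). Tagln kept its direction in all 23 of its alternatives (1.22 to 1.71), with adjusted p from 0.0765 to 0.681, and Tpm2 in all 18 (1.49 to 2.65). Those 18 lack the fits without mouse 67 and without mouse 70, with and without the block. In these, and with at least 10 counts in every library, Tpm2 did not pass the filter. Its E-cadLO counts were 8, 7, 72 and 48 in mice 57, 58, 67 and 70, so its dependence on mice 67 and 70 was not tested. The mean log2 ratio of Tagln within mice came to 0.74 with a pseudocount of 2 CPM. Members higher in 4 of 4 mice were 3 under TMM, with other pseudocounts and with DESeq2 size factors, and 2 with library totals only. The median of the members ranged from 0.67 to 1.53 and that of the other contractile genes from 0.26 to 0.67. Over all genes, the counts higher and lower in E-cadLO cells were 298 and 61 with DESeq2, 99 and 0 with the replicate block, 1030 and 225 with DESeq2 and the replicate block, 23 and 0 without a filter, and 3 and 0 with at least 10 counts in every library, a filter that left Tagln, Tpm1 and Vim of the members. Leave-outs gave 0 to 13 higher, with 13 without the E-cadLO library of mouse 70. With the replicate block, leaving out mouse 57, 58, 67 or 70 gave 425, 63, 0 and 2 genes higher and 24, 3, 0 and 0 lower. Other contractile genes called were 1 with DESeq2, 2 with DESeq2 and the replicate block, and 1, Csrp1, with the block without mouse 57. The replicate block changed the call of no member. The cause of these changes was not tested. Depth limits the 8 scarce genes, most of whose libraries held fewer than 100 counts of a gene.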
